A study of Camellia sinensis with 24 samples.

Results

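The roots of “1511” and “1601” were compared on the K-supplied side of split-root tea plants (Camellia sinensis), the condition named Sp.NK. The members were chosen by their labels, 3 libraries of 1511-Sp.NK and 3 of 1601-Sp.NK, and make up 6 of the 24 libraries of the series. Both genotypes come from the F1 population of Longjing 43 × Baihaozao, and “1511” tolerates low K availability whereas “1601” does not. Each genotype is 1 selected individual kept by cuttings, so tolerance of low K and any other trait in which the 2 genotypes differ cannot be told apart. Rooted cuttings grew for 60 days in a hydroponic solution with K. Their roots were spread over a box with 2 compartments, 12 plants to a box, and for the last 5 days the Sp.NK compartment kept 1 mM K2SO4 while the other compartment of the same plants held 0 mM (Sp.SK). In the remaining conditions both compartments held 1 mM (U.NK) or 0 mM (U.SK). The labels do not say which Sp.NK library shares plants with which Sp.SK library.

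Roots take up K+ through transporters of the HAK/KUP type, which can work against a steep gradient, and through voltage-gated channels of the Shaker type. In Arabidopsis, kinases of the CIPK family switch some of these proteins on when external K is low, and PP2C phosphatases switch some of them off. Growth of the root into a nutrient-rich zone depends on the loosening and rebuilding of the cell wall by expansins, xyloglucan endotransglucosylases, pectin enzymes and cellulose synthases. Tea roots are also a main site of theanine synthesis and make many phenolic compounds. No sequence of these genes is printed, because the genome of the gene models was not used here.

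The 3 libraries of “1511” held 13889304 to 18272129 reads counted on genes and those of “1601” 19233107 to 23704712, so “1511” was sequenced less deeply in every library. Replicates of a genotype correlated at r = 0.9545 to 0.9744 across genes on log2 CPM (the reads of a gene scaled to the TMM-adjusted size of its library), and libraries of different genotypes at 0.8478 to 0.861. Within the genotypes the biological coefficient of variation was 0.297 (1511) and 0.27 (1601). Summed CPM of root marker lists overlapped between the genotypes for the endodermis (1456 to 2503 in 1511, 1515 to 1908 in 1601), dividing cells (5317 to 5882 and 5419 to 6128), sieve elements (24.26 to 57.46 and 24.34 to 41.98) and photosynthesis (834.6 to 955.9 and 836.9 to 1596). The list of secondary wall genes, laccases and fasciclin-like proteins, did not overlap (1510 to 1813 in 1511 and 2072 to 2529 in 1601). The calls in this list did not lean that way, with 6 higher and 5 lower of 89 tested. The median log2 difference of the laccase family was -0.24, however, against -0.03 over all genes tested. A large part of the gap came from the most abundant gene of the list, TEA020236, with mean levels of 224.79 CPM in 1511 and 550.48 CPM in 1601. In whole roots, fewer cells of a type and less RNA per cell cannot be told apart.

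Of 35557 genes tested, 9055 differed between the genotypes on Sp.NK at an adjusted p under 0.05 (25.5%, edgeR's quasi-likelihood test with Benjamini-Hochberg adjustment), 4415 of them higher in “1511” (12.4%) and 4640 lower (13%). Many of the differences were large. The median absolute log2 difference of the called genes was 1.88, 6828 differed at least 2-fold (19.2%), 4323 at least 4-fold and 2442 at least 16-fold. Of the called genes, 1333 had at most 3 reads in each Sp.NK library of “1511” and 1141 in each of “1601”. Their folds are therefore poorly measured. With at least 10 counts in every library, 1924 of 3840 calls were at least 2-fold. Newly assembled genes gave 1885 higher and 1713 lower calls of 9869 tested, gene models 2530 and 2927 of 25688. In 8700 of the called genes all 3 libraries of 1 genotype lay beyond all 3 of the other, against 38.9% of all genes tested. The median log2 difference over all tested genes was -0.03. When each library was left out in turn, 5680 of the called genes (62.7%) kept the call in all 6 fits, and every call shared between a left-out fit and the full one had the same direction.

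**Figure D1:**
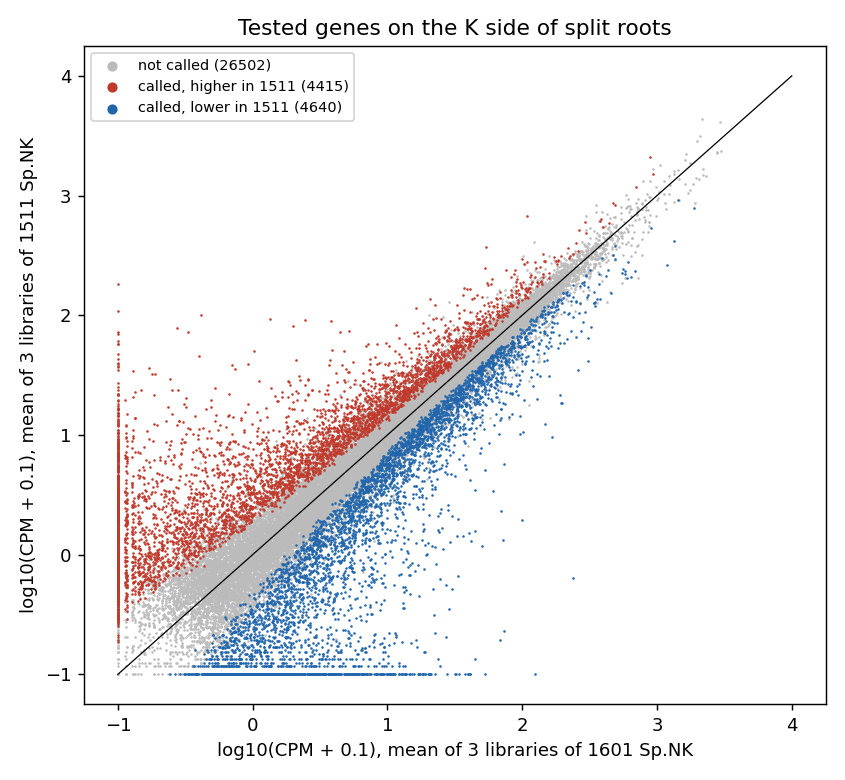
Mean level of every tested gene on the K side, 1601 on the x axis and 1511 on the y axis, both as log10(CPM + 0.1) over 3 libraries. Red points (4415) were higher and blue points (4640) lower in “1511”, and the column at the left edge and the row at the bottom hold genes with no or almost no reads in 1 genotype.

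The 57 families described here, grouped from the Pfam names of the gene table, differed in how often their members were called. Against 25.5% of all genes, the highest shares were those of Bet v I proteins (50% of 22), SABATH methyltransferases (45.8% of 24), terpene synthases (43.5% of 23), NB-ARC immune receptors (42.4% of 406) and O-methyltransferases (40.7% of 27). With 1 library left out, terpene synthases had 1 to 6 higher and 3 to 5 lower calls, against 5 and 5 with all libraries. O-methyltransferases had 0 to 4 higher and 5 to 7 lower, against 3 and 8. The lowest were those of chalcone synthases and phenylalanine ammonia-lyases (10.5%), dirigent-like proteins (11.5%), polygalacturonases and pectate lyases (13.3%) and laccases and WRKY factors (13.7% each). These shares are descriptions, and no test between families was run. No count or median of a family is a test of that family either.

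**Figure D2:**
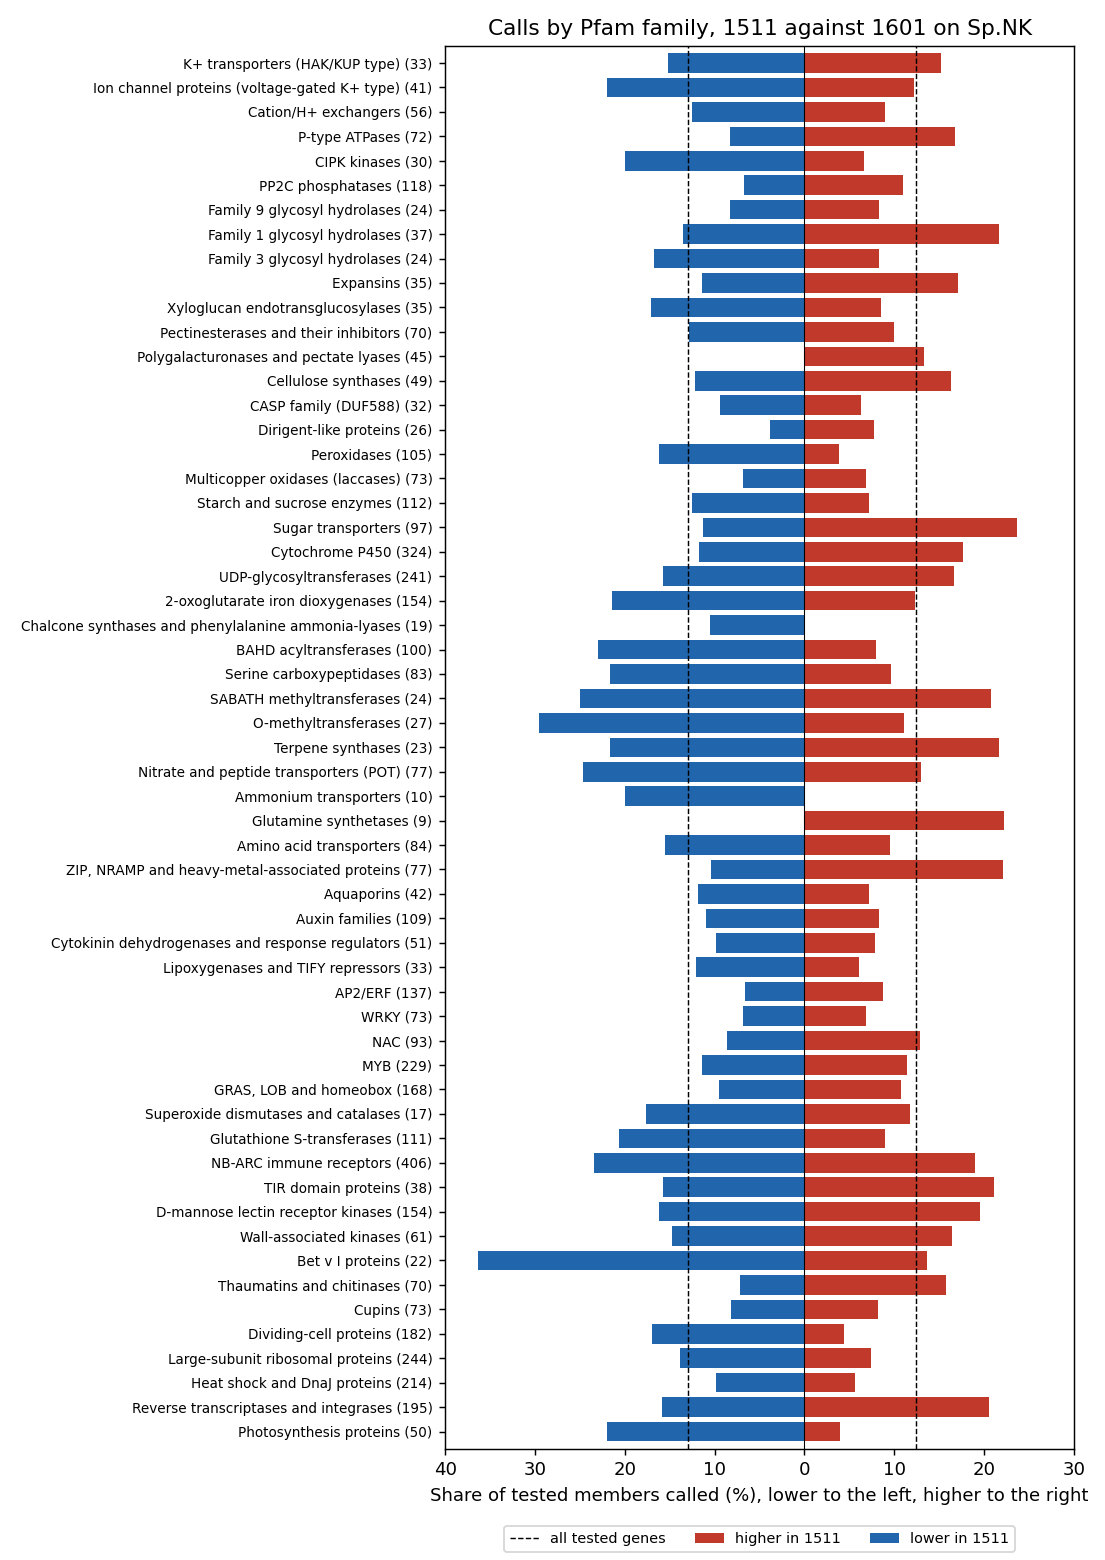
Share of the tested members (number in brackets) called higher in “1511” to the right and lower to the left, in percent, for 57 Pfam families. The dashed lines stand at the shares over all tested genes, 12.4% and 13%, and sugar transporters reach well past the right line while Bet v I proteins reach furthest past the left one.

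Potassium uptake genes were called in both directions. Of 33 tested K+ transporters of the HAK/KUP type, which carry K+ into the root cell, 5 were higher and 5 lower in “1511”, with a median log2 difference of 0.00 over the family, and 23 were not called. The summed level of the family was 989.4 to 1295 CPM in 1511 and 940.5 to 1035 CPM in 1601. Hence the family sum overlapped while single members differed strongly. All 5 higher members kept the call whichever library was left out. Of the lower ones 3 did, and the count of 5 fell to 3 without 1511 replicates 1 or 3 or 1601 replicates 1 or 2.

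The largest difference was in a newly assembled gene on scaffold 1156 (119186 to 126438) whose predicted protein joins a K+ transporter domain with a malic enzyme domain, so that its reads may come from 2 neighbouring genes. It had 19.9, 13.7 and 17.9 CPM in “1511” and 0.409, 0 and 0 CPM in “1601”, a log2 difference of 7.07 ± 0.70 (SE, adjusted p = 1.78e-07 by edgeR). The groups did not overlap, and 2 of the 1601 libraries had no read. TEA003872, a K+ transporter, had 9.26, 1.83 and 10.3 CPM against 0.409, 0.0851 and 0.443 (log2 4.50 ± 0.98, adjusted p = 0.00163). Here 1511 replicate 2 was well below its group but still above all of “1601”. The called member with the most reads was TEA007724, with 105.9, 82.9 and 82.7 CPM in “1511” and 46.2, 51.8 and 55.0 CPM in “1601” (log2 0.83 ± 0.19, adjusted p = 0.003). TEA011201 had 30.4, 22.4 and 17.8 CPM against 8.49, 13.4 and 9.30 (log2 1.18 ± 0.29, adjusted p = 0.00494). Lower in “1511” was TEA011420, with 1.15, 1.32 and 1.38 CPM against 8.13, 8.04 and 7.08 (log2 -2.59 ± 0.40, adjusted p = 5.09e-05). Replicates of this gene were almost alike within each genotype. A newly assembled member on scaffold 944 was also lower, at 0.366, 0.365 and 0.107 CPM against 2.40, 3.96 and 4.39 (log2 -3.68 ± 0.59, adjusted p = 0.000108).

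Among 41 ion channel proteins, which include the Shaker-type K+ channels and the cyclic nucleotide-gated channels, 5 were higher and 9 lower (median log2 -0.17). The lower count was 5 without 1511 replicates 1 or 2 or 1601 replicate 1. TEA003146 was read almost only in “1511”, with 378, 173 and 479 reads against 0, 0 and 1 read, at least 144.2-fold higher when 3 reads per library are taken as the floor. TEA010797 carries the KHA domain that marks Shaker-type K+ channels, and had 14.5, 15.4 and 9.90 CPM in “1511” and 6.24, 5.62 and 4.51 CPM in “1601” (log2 1.28 ± 0.32, adjusted p = 0.00473 by edgeR). Its groups did not overlap. Of the 7 tested members with this domain 1 was higher and 2 were lower. TEA032130, one of the lower ones, had 23.3, 28.9 and 9.05 CPM against 59.9, 30.5 and 54.3 (log2 -1.24 ± 0.39, adjusted p = 0.0229), a call lost without 1511 replicate 3 (adjusted p = 0.109) or 1601 replicates 1 (0.09) or 3 (0.0692). TEA014801, the other, which overlaps another gene, had a log2 difference of -0.70 ± 0.21 (adjusted p = 0.0201) and lost its call in 3 of the 6 left-out fits. Outside this group, TEA031596 was higher, with 39.8, 35.7 and 37.4 CPM in “1511” and 21.0, 19.7 and 23.5 CPM in “1601” (log2 0.81 ± 0.19, adjusted p = 0.00263). The opposite pattern was found for TEA011827, with 1, 0 and 0 reads in “1511” and 3.32, 2.26 and 2.21 CPM in “1601”.

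Of the 30 tested CIPK kinases, recognised by the NAF domain through which a calcium sensor binds, 6 were lower and 2 higher in “1511” (median log2 -0.29), and 3 of these 8 calls held in all left-out fits. The 2 higher calls became 1 or 0 when any library was left out (0 without 1601 replicate 3). TEA006066 had 46.7, 38.9 and 75.1 CPM in “1511” and 170.3, 103.0 and 194.0 CPM in “1601” (log2 -1.54 ± 0.39, adjusted p = 0.00586 by edgeR). TEA003011 had 69.2, 63.6 and 79.0 CPM against 110.6, 92.7 and 144.3 (log2 -0.71 ± 0.18, adjusted p = 0.00541). The family sum lay at 1585 to 1751 CPM in “1511” and 1966 to 2272 CPM in “1601”, without overlap. PP2C phosphatases, by contrast, had 13 members higher and 8 lower of 118 (17.8% called). The lower count was 5 without 1511 replicates 1 or 3. TEA023902, one of the higher phosphatases, had 10.9, 11.8 and 9.0 CPM against 1.64, 0.978 and 0.966 (log2 3.15 ± 0.35, adjusted p = 7.68e-07).

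P-type ATPases, the pumps that move protons, calcium and heavy metals, were higher in 12 cases and lower in 6 of 72 (25% called, as in all genes), and 14 of these 18 calls held in all left-out fits. Cation/H+ exchangers were higher in 5 and lower in 7 of 56, the higher count being 1, 3, 2 and 3 without 1511 replicates 1 and 3 and 1601 replicates 1 and 3. Most of the lower exchangers were of the sodium/calcium type, with 6 lower and 2 higher of 24, whereas the sodium/hydrogen type had 3 higher and 1 lower of 32. TEA004557, a cation-transporting ATPase, was the called pump with the most reads, at 207.4, 164.2 and 144.0 CPM in “1511” and 101.9, 87.7 and 105.0 CPM in “1601” (log2 0.81 ± 0.15, adjusted p = 0.000396 by edgeR). TEA031973, which also carries a diacylglycerol kinase domain, showed the reverse, with 1, 0 and 3 reads in “1511” and 8.54, 8.98 and 10.5 CPM in “1601”. Of the exchangers, TEA004299 with its calcium-binding EF-hands had 7.01, 10.4 and 5.64 CPM against 26.7, 21.5 and 21.3 (log2 -1.59 ± 0.33, adjusted p = 0.00116).

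**Figure D3:**
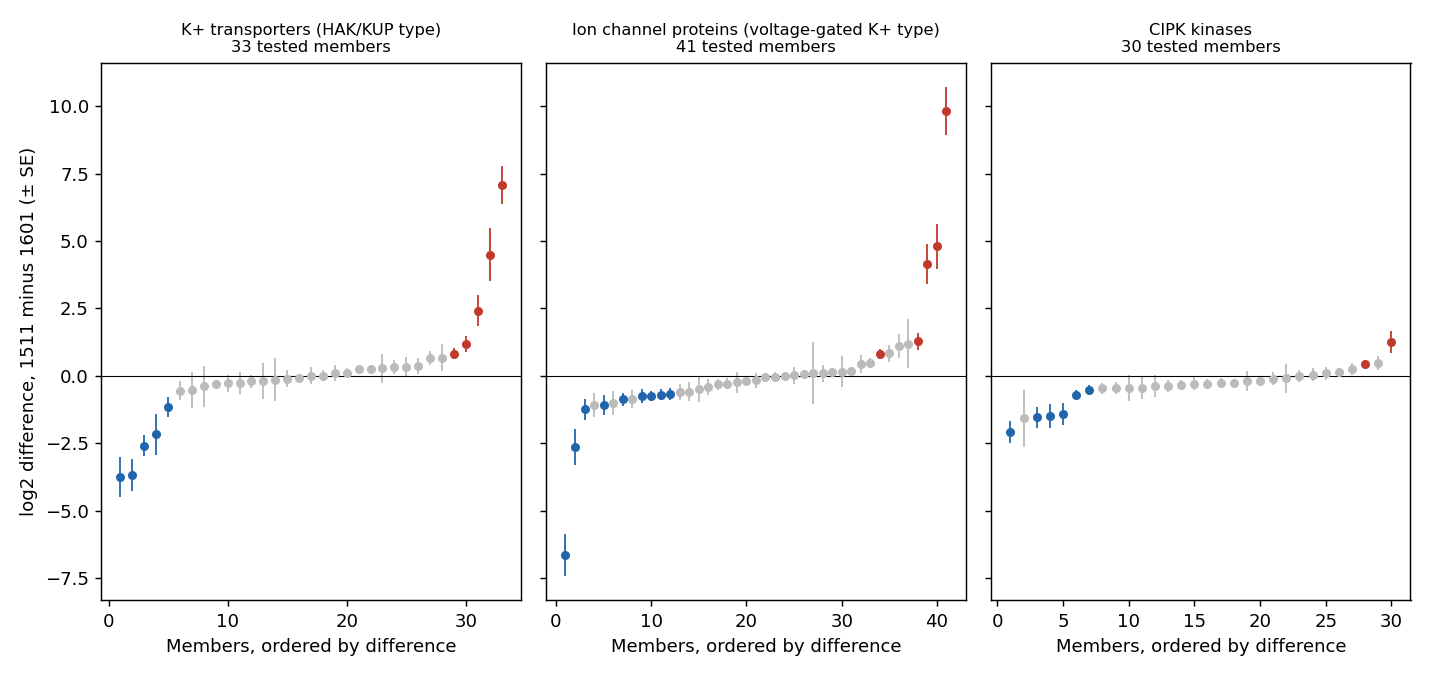
Log2 difference between “1511” and “1601” on Sp.NK with its SE for each tested K+ transporter (33), ion channel (41) and CIPK kinase (30), ordered within each panel. Red members were called higher, blue lower and grey not called, and the differences past 2.5 on the log2 scale all belong to transporters and channels.

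Called nitrate and ammonium transporters were more often lower than higher in “1511”. Of 77 nitrate and peptide transporters of the POT family, 19 were lower (24.7%, against 13% of all genes) and 10 higher (13%, against 12.4%). The higher count was 5, 6, 4 and 6 without 1511 replicates 1 and 3 and 1601 replicates 1 and 2. TEA025552 had 8.42, 5.77 and 11.2 CPM in “1511” and 36.4, 29.0 and 47.0 CPM in “1601” (log2 -2.14 ± 0.34, adjusted p = 6.02e-05 by edgeR). TEA027324 had 9.84, 13.5 and 10.5 CPM against 41.7, 39.7 and 31.6 (log2 -1.74 ± 0.29, adjusted p = 0.000111). In the same direction was TEA007227, the accessory protein that high-affinity nitrate transporters need in the membrane, with 302.9, 154.1 and 245.6 CPM against 567.7, 625.5 and 874.1 (log2 -1.56 ± 0.44, adjusted p = 0.0117). Its call was lost without 1511 replicate 2 (adjusted p = 0.0636) or 1601 replicate 3 (0.0513). Both ammonium transporters called, of 10 tested, were lower (20%, against 13% of all genes). In this family 1 higher call was gained without 1511 replicate 2 or 1601 replicate 3. TEA030175 had no read in “1511” and 2.15, 12.1 and 4.63 CPM in “1601”, and TEA024685 had 3.30, 2.56 and 3.41 CPM against 9.41, 7.44 and 8.13 (log2 -1.42 ± 0.37, adjusted p = 0.00669).

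Of 9 glutamine synthetases, which fix ammonium into glutamine, 2 were called higher and none lower, while the median log2 difference of the family was -0.55. TEA032123 had 77.9, 77.5 and 75.5 CPM in “1511” and 39.1, 36.9 and 41.7 CPM in “1601” (log2 0.97 ± 0.24, adjusted p = 0.00444 by edgeR). The family sum was below that of “1601” in every library (2269 to 3794 CPM against 4248 to 5936 CPM). Amino acid transporters were higher in 8 and lower in 13 of 84, the higher count being 5, 5 and 4 without 1511 replicates 1 and 3 and 1601 replicate 3. TEA022823, an amino acid permease, had 6.70, 8.55 and 5.00 CPM against 26.9, 20.6 and 26.1 (log2 -1.86 ± 0.27, adjusted p = 1.82e-05).

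Of 77 ZIP, NRAMP and heavy-metal-associated proteins, 17 were higher (22.1%, against 12.4% of all genes) and 8 lower (10.4%, against 13%). With 1 library left out the counts were 12 to 19 and 4 to 7, with 12 higher without 1601 replicate 3. Most of the members, 54, had the heavy-metal-associated domain, found in copper and zinc carriers. Of these, 15 were higher and 5 lower (37% called, against 25.5% of all genes), with a median log2 difference of 0.61. Of 13 ZIP transporters 1 was higher and 2 were lower, and of 10 NRAMP transporters 1 was called in each direction. A newly assembled metallothionein on scaffold 684, a small cysteine-rich metal binder, had the highest mean FPKM of the higher genes that differed at least 2-fold, 2663 in 1511 and 1113 in 1601, and stood at 1948, 2153 and 2213 CPM in “1511” and 1029, 1072 and 580 CPM in “1601” (log2 1.24 ± 0.24, adjusted p = 0.000612 by edgeR). The copper-binding plastocyanin-like gene TEA017986 ran the other way, at 210.3, 484.0 and 148.5 CPM against 653.9, 683.9 and 504.0 (log2 -1.13 ± 0.34, adjusted p = 0.0188). Its call was lost without 1511 replicate 1 (adjusted p = 0.0931), 1511 replicate 3 (0.0971), 1601 replicate 1 (0.0513) or 1601 replicate 2 (0.0545).

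Aquaporins, the water channels of the membrane, were called in 8 of 42 members, 3 higher and 5 lower, the lower count being 3 without 1511 replicate 2 and the higher 5 without 1511 replicate 3. The called member with the most reads was TEA003869, with 876.5, 504.0 and 997.0 CPM in “1511” and 2256, 1476 and 1872 CPM in “1601” (log2 -1.24 ± 0.33, adjusted p = 0.00758 by edgeR, and 0.0526 without 1511 replicate 2). TEA019952 had 221.9, 300.3 and 189.1 CPM against 395.6, 485.4 and 424.3 (log2 -0.88 ± 0.24, adjusted p = 0.00828). TEA008680 was higher in “1511” at 19.5, 14.9 and 16.1 CPM against 1.53, 1.28 and 2.50 (log2 3.24 ± 0.33, adjusted p = 2.59e-07). The summed level of the family overlapped between the genotypes (8670 to 17270 CPM and 10380 to 16520 CPM).

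Cell wall families differed in opposite directions within each family, except for the pectin-cutting enzymes. Of 45 polygalacturonases and pectate lyases, 6 were higher in “1511” and none lower, a share of 13.3% that lies near the 12.4% of all genes in that direction. TEA020268, a polygalacturonase that overlaps 2 other genes, had 26.5, 12.8 and 19.5 CPM in “1511” and 6.90, 7.44 and 6.80 CPM in “1601” (log2 1.48 ± 0.21, adjusted p = 2e-05 by edgeR). TEA010416, a pectate lyase, had 30.2, 23.2 and 21.8 CPM against 16.1, 13.9 and 15.0 (log2 0.74 ± 0.18, adjusted p = 0.00398). Pectinesterases and their inhibitors gave 7 higher and 9 lower calls of 70. Within them TEA030092, an inhibitor of invertase or pectin methylesterase, was far lower in “1511”, at 31.4, 23.7 and 69.5 CPM against 313.0, 186.7 and 419.2 (log2 -2.88 ± 0.76, adjusted p = 0.00761).

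Expansins, which loosen the wall without cutting it, were higher in 6 and lower in 4 of 35 members, and 4 of the 10 calls held in all left-out fits. The lower count was 1, 2, 2 and 2 without 1511 replicates 2 and 3 and 1601 replicates 1 and 3. The called member with the most reads, TEA033642, was lower in “1511”, at 32.4, 47.4 and 25.2 CPM against 263.1, 390.6 and 118.0 (log2 -2.88 ± 0.41, adjusted p = 1.77e-05 by edgeR). Higher were TEA008211, at 11.5, 24.7 and 23.1 CPM against 6.70, 2.98 and 5.07 (log2 2.01 ± 0.43, adjusted p = 0.00151), and TEA008282, at 23.2, 12.9 and 29.7 CPM against 3.48, 2.26 and 4.79 (log2 2.64 ± 0.61, adjusted p = 0.00255). Xyloglucan endotransglucosylases, which cut and rejoin the chains that tie cellulose together, were lower in 6 and higher in 3 of 35. Only 2 of these 9 calls held throughout, and the lower count was 3, 1 and 2 without 1511 replicates 1 and 3 and 1601 replicate 1, the higher count 1 without 1511 replicate 3 or 1601 replicate 1. One call that held was TEA021989, with 14.8, 22.3 and 19.96 CPM against 35.4, 65.7 and 41.0 (log2 -1.32 ± 0.32, adjusted p = 0.00381). The other, TEA019643, was read almost only in “1511”, at 5.60, 4.09 and 9.58 CPM against 0, 1 and 0 reads.

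Cellulose synthases and their relatives gave 8 higher and 6 lower calls of 49. The lower count was 2, 3 and 2 without 1511 replicates 1 and 3 and 1601 replicate 3. Among the higher ones, a newly assembled gene on scaffold 2360 had 1911, 1809 and 2498 reads in “1511” and 474, 1224 and 531 reads in “1601” (log2 1.90 ± 0.28, adjusted p = 2.37e-05 by edgeR). TEA010813 had 45.8, 45.1 and 59.2 CPM against 8.03, 15.8 and 10.3 (log2 2.14 ± 0.34, adjusted p = 6.49e-05). Of the lower ones, a newly assembled gene on scaffold 930 had 3.45, 3.29 and 2.98 CPM against 7.57, 6.64 and 5.92 (log2 -1.05 ± 0.23, adjusted p = 0.00191).

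Cellulose-degrading families take a central place in the study of these plants. Of 24 family 9 glycosyl hydrolases (endoglucanases), 2 were higher and 2 lower (16.7%), the lower count being 1 without 1511 replicates 2 or 3 or 1601 replicates 1 or 3. The higher ones had few reads, TEA000046 with 1.05, 0.950 and 2.02 CPM in “1511” and none in “1601”, and TEA000048 with 1.88, 1.31 and 4.10 CPM against 0.102, 0 and 0. The lower TEA013095 had 32.9, 10.7 and 27.3 CPM against 49.1, 52.9 and 59.0 (log2 -1.18 ± 0.41, adjusted p = 0.04 by edgeR), and of the 6 left-out fits only that without 1511 replicate 1 kept its call (adjusted p 0.0625 to 0.18 in the others). Family 1 beta-glucosidases, which release glucose from short sugar chains, were higher in 8 and lower in 5 of 37. Without 1511 replicate 1, 1601 replicate 1, 1601 replicate 2 or 1601 replicate 3 the higher count was 5, 5, 5 and 4, and the lower count was 3 without 1511 replicates 2 or 3 or 1601 replicates 2 or 3. The clearest was TEA004281, with 94.8, 188.5 and 159.3 CPM in “1511” and 42.0, 36.5 and 31.0 CPM in “1601” (log2 2.01 ± 0.30, adjusted p = 2.67e-05). Family 3 hydrolases gave 2 higher and 4 lower calls of 24, and the 2 higher ones became 0 or 1 in 4 of the left-out fits (1 without 1511 replicate 1, 0 without 1511 replicate 3 or 1601 replicates 1 or 3).

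The genes that the study discusses, most of them in the path from cellulose and starch to glucose, did not pass the edgeR test on Sp.NK with all libraries. For TEA026325, TEA008079 and TEA019040, the study described “1511” as above “1601” when K was heterogeneous. It also related PCR of cellulose decomposition genes to total root length. Its statements on heterogeneous against homogeneous K cover TEA026325, TEA008079, TEA019040, TEA014414 and TEA023084. Those statements, and the ones on TEA016242 and TEA008360 (K stress), concern changes within “1511”. The comparison made here does not address those. TEA026325, an endoglucanase with a carbohydrate-binding domain, had 51.5, 71.8 and 89.7 CPM in “1511” and 53.6, 20.5 and 91.6 CPM in “1601”, so the groups overlapped (log2 0.36 ± 0.52, adjusted p = 0.67 by edgeR). TEA008079, a family 1 hydrolase that overlaps another gene, had 23.3, 16.3 and 31.5 CPM against 17.7, 24.4 and 15.9 (log2 0.30 ± 0.37, adjusted p = 0.621). Its log2 difference on Sp.NK lay 1.79 above the mean of the other 3 conditions (adjusted p = 0.0392 by edgeR). That test passed in 9 of 24 fits with 1 library left out. For TEA019040, a family 3 hydrolase, the values were 37.0, 26.1 and 82.0 CPM against 9.10, 40.5 and 10.5 (log2 1.27 ± 0.67, adjusted p = 0.183). Its 1601 replicate 2 lay above 2 of the 3 libraries of “1511”, and without that library the difference was 2.30 and passed the test (adjusted p = 0.028). By limma voom with quality weights it was 1.64 and passed too (adjusted p = 0.0216). TEA014414, a starch phosphorylase, had 14.8, 8.33 and 13.9 CPM against 17.4, 12.8 and 19.6 (log2 -0.43 ± 0.49, adjusted p = 0.581), and TEA023084, a nucleotidyl transferase, 2.88, 2.70 and 7.72 CPM against 6.24, 3.40 and 2.09 (log2 0.19 ± 0.53, adjusted p = 0.836). The iron/manganese superoxide dismutase TEA008360 (log2 0.40 ± 0.32, adjusted p = 0.404) and the membrane transport protein TEA016242 (log2 0.13 ± 0.24, adjusted p = 0.746) were not called either. None of these p-values shows that the genotypes were alike.

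The 97 sugar transporters had 23.7% of members higher and 11.3% lower, against 12.4% and 13% of all genes. No test between their types was run. Sugar and other transporters of the major facilitator type were higher in 23 and lower in 6 of 86 (33.7% called, against 25.5% of all genes, median log2 0.41). Of 11 sugar efflux transporters (SWEET type), which let sugars leave the cell, none was higher and 5 were lower (45.5% called). In the first group TEA023124 had 9.52, 15.6 and 9.0 CPM in “1511” and 2.40, 1.74 and 0.966 CPM in “1601” (log2 2.74 ± 0.70, adjusted p = 0.00556 by edgeR). Of the SWEET genes, TEA022336 had 56.4, 65.8 and 54.4 CPM against 102.5, 89.6 and 86.3 (log2 -0.66 ± 0.16, adjusted p = 0.00371) and TEA015535 1.83, 2.56 and 1.28 CPM against 8.23, 5.87 and 6.44 (log2 -1.87 ± 0.41, adjusted p = 0.00176). These were the 2 SWEET calls that held in all left-out fits. Starch and sucrose enzymes gave 8 higher and 14 lower calls of 112, the higher count being 3, 4 and 4 without 1511 replicate 1 and 1601 replicates 1 and 3. Of 11 starch phosphorylases, which take glucose units off starch, 5 were lower and none higher. TEA004383, with a sucrose synthase domain, had 8.06, 4.82 and 4.47 CPM against 13.5, 12.3 and 14.05 (log2 -1.19 ± 0.22, adjusted p = 0.000314).

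Of 105 peroxidases, which couple lignin units and use hydrogen peroxide, 17 were lower in “1511” and 4 higher (median log2 -0.24). The share called was 20%, under the 25.5% of all genes, with 16.2% lower against 13% and 3.81% higher against 12.4%. The lower count was 11 without 1511 replicate 3, the higher 2 without 1511 replicates 1 or 3 or 1601 replicates 1 or 3. TEA019320 had 1.05, 1.61 and 0.852 CPM in “1511” and 25.98, 41.0 and 20.4 CPM in “1601” (log2 -4.65 ± 0.77, adjusted p = 9.79e-05 by edgeR). Laccases were called in 10 of 73 members, 5 in each direction. The higher count was 3, 3, 2, 3 and 3 without 1511 replicates 1 and 3 and 1601 replicates 1, 2 and 3, and the lower 2, 3 and 3 without 1511 replicate 1 and 1601 replicates 1 and 3. TEA006738, a multicopper oxidase, was nevertheless far higher in “1511”, at 36.2, 24.3 and 55.2 CPM against 2.30, 6.17 and 5.07 (log2 3.09 ± 0.56, adjusted p = 0.000287). Summed over the families, peroxidases (4523 to 5672 CPM and 5648 to 6440 CPM) overlapped slightly and laccases (1238 to 1641 CPM and 1841 to 2325 CPM) did not. The secondary wall marker sums given above include the laccases, so they are not independent of the laccase sums. Their part in these results was not tested. CASP proteins, which build the Casparian strip, had 2 higher and 3 lower calls of 32, the higher count being 1 without 1511 replicate 1 or 1601 replicates 1 or 2.

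Glutathione S-transferases, which attach glutathione to reactive compounds, were lower in 23 and higher in 10 of 111 (15 lower without 1511 replicate 1). TEA026775 was one of the higher members, with 41.6, 23.6 and 52.6 CPM in “1511” and 0.614, 1.19 and 0.644 CPM in “1601” (log2 5.57 ± 0.79, adjusted p = 1.78e-05 by edgeR). Superoxide dismutases and catalases gave 2 higher and 3 lower calls of 17 (median log2 0.07), the higher count being 1 without 1601 replicate 3. The copper/zinc superoxide dismutase TEA023332 had 2.41, 4.09 and 4.15 CPM against 23.3, 26.8 and 17.7 (log2 -2.67 ± 0.25, adjusted p = 9.36e-08).

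Families of specialized metabolism had calls in both directions, against 25.5% of all genes called. Cytochrome P450 oxidases (29.3% called) were higher in 57 and lower in 38 of 324, UDP-glycosyltransferases, which attach sugars (32.4%), in 40 and 38 of 241, and 2-oxoglutarate iron dioxygenases, which include enzymes of flavonoid and gibberellin synthesis (33.8%), in 19 and 33 of 154. The glycosyltransferases had 25 lower calls without 1511 replicate 1. TEA004705, a P450, had 0.471, 0.0731 and 0.213 CPM in “1511” and 29.5, 25.8 and 30.3 CPM in “1601” (log2 -6.70 ± 0.38, adjusted p = 7.26e-10 by edgeR). The glycosyltransferase TEA008451 was its mirror image, at 25.6, 10.4 and 15.5 CPM against 0.205, 0.298 and 0.161 (log2 6.24 ± 0.55, adjusted p = 3.52e-08). The dioxygenase TEA024235 had 3.35, 2.19 and 1.97 CPM against 28.7, 25.9 and 30.1 (log2 -3.49 ± 0.30, adjusted p = 3.42e-08).

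Among the acyltransferases, lower calls outnumbered higher ones. BAHD acyltransferases, which acylate phenolics, were lower in 23 and higher in 8 of 100 with a median log2 difference of -0.41 (5 and 4 higher without 1511 replicate 3 and 1601 replicate 1), and serine carboxypeptidases, whose relatives galloylate catechins in tea, in 18 and 8 of 83 (11 lower without 1511 replicate 2). A newly assembled acyltransferase on scaffold 2379 had 15.6, 4.82 and 9.64 CPM in “1511” and 86.4, 104.3 and 97.3 CPM in “1601” (log2 -3.25 ± 0.40, adjusted p = 3.39e-06 by edgeR). Methyltransferases had calls in both directions and medians above 0. SABATH methyltransferases, the family that holds caffeine synthase, differed in 11 of 24 members, 5 higher and 6 lower (median log2 0.18), O-methyltransferases in 11 of 27, 3 higher and 8 lower (median log2 0.45), and 9 of the 11 SABATH calls held in all left-out fits. TEA021081 had 2.51, 0.365 and 2.72 CPM in “1511” and 102.9, 101.9 and 94.4 CPM in “1601” (log2 -5.69 ± 0.64, adjusted p = 2.06e-06), so that the level in “1601” was nearly constant. TEA003157 had 1.88, 0.950 and 2.88 CPM against 24.4, 26.1 and 49.4 (log2 -4.10 ± 0.59, adjusted p = 2.07e-05), and TEA021329 26.3, 18.1 and 27.1 CPM against 10.4, 8.42 and 12.5 (log2 1.19 ± 0.29, adjusted p = 0.00379). Of the entry enzymes of the phenylpropanoid and flavonoid paths, none of 5 chalcone synthases (median log2 0.97) and 1 of 7 aromatic amino acid lyases was called. That lyase, TEA014166, had 6.33, 7.01 and 6.65 CPM against 14.7, 19.9 and 12.4 (log2 -1.23 ± 0.35, adjusted p = 0.0126, and 0.0603 without 1601 replicate 2).

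Immune receptors with an NB-ARC domain, which sense pathogen proteins inside the cell, were the largest family with a high share of calls, 77 higher and 95 lower of 406 (42.4%). Without any 1 library the counts were 65 to 86 and 79 to 91. TEA006687 had 0.523, 0.585 and 0.266 CPM in “1511” and 26.4, 21.3 and 33.6 CPM in “1601” (log2 -5.89 ± 0.28, adjusted p = 1.93e-11 by edgeR). TIR domain proteins, a subgroup of such receptors, gave 8 higher and 6 lower calls of 38 (4, 4, 4 and 5 higher without 1511 replicate 3 and 1601 replicates 1, 2 and 3), and lectin receptor kinases 30 and 25 of 154. TEA009509, one of these kinases, had 1.57, 1.10 and 1.22 CPM against 14.3, 7.27 and 17.8 (log2 -3.32 ± 0.34, adjusted p = 3.32e-07). Reads of such closely related receptors may have been divided among copies, since the treatment of reads that match several genes is not given in the sources used here.

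Bet v I proteins, small pathogenesis-related proteins that bind hydrophobic ligands, had the highest share of calls, 8 lower and 3 higher of 22 (median log2 -0.67). The lower count was 5 without 1511 replicate 1 or 1601 replicate 2, and the higher 1 without 1511 replicate 3 or 1601 replicates 1 or 3. TEA021113 had 0.366, 0.731 and 0.532 CPM in “1511” and 9.46, 11.1 and 5.88 CPM in “1601” (log2 -4.04 ± 0.74, adjusted p = 0.00032 by edgeR). TEA012082 had 2.20, 0.365 and 3.46 CPM against 14.3, 40.5 and 15.9 (log2 -3.51 ± 0.85, adjusted p = 0.00384). The one with the most reads, TEA021347, had 186.3, 150.1 and 290.9 CPM against 683.3, 812.9 and 436.9 (log2 -1.62 ± 0.49, adjusted p = 0.0171), a call that was lost without 1511 replicate 1 (adjusted p = 0.0648), 1511 replicate 2 (0.0772) or 1601 replicate 2 (0.0591). Thaumatins and chitinases, which attack fungal walls, leaned the other way with 11 higher and 5 lower of 70. That lean rested on single libraries, with 7, 4 and 4 higher calls without 1511 replicate 1 and 1601 replicates 1 and 3, and 11 lower ones without 1511 replicate 2. The protease inhibitor TEA029386 of the potato inhibitor I family was among the strongest differences of all, at 0.105, 0.292 and 0 CPM in “1511” and 117.5, 71.1 and 32.4 CPM in “1601” (log2 -9.21 ± 0.88, adjusted p = 1.03e-07).

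Called genes of dividing cells were more often lower than higher in “1511”, with 31 lower and 8 higher of 182 and a median log2 difference of -0.35. The share called was 21.4%, under the 25.5% of all genes, with 17% lower against 13% and 4.4% higher against 12.4%. The lower count was 18, 17, 19 and 17 without 1511 replicates 1 and 2 and 1601 replicates 1 and 3. Over all genes the lower count in those fits was 3663, 4025, 3931 and 3922, against 4640 with all libraries. Kinesins, the motors of spindle and cell plate, accounted for 14 of the lower and 3 of the higher calls (87 tested), cyclins for 12 and 2 (45 tested) and core histones for 4 and 3 (39 tested). Summed over the list the genotypes overlapped, as given above. The core histone TEA006782 was higher in “1511”, at 614.9, 644.6 and 558.4 CPM against 297.5, 336.1 and 241.7 (log2 1.05 ± 0.23, adjusted p = 0.00176 by edgeR). A newly assembled cyclin on scaffold 2442 was too, at 17.3, 11.3 and 10.3 CPM against 0.102, 0.128 and 0.322 (log2 6.04 ± 0.55, adjusted p = 6.57e-08). Large-subunit ribosomal proteins gave 18 higher and 34 lower calls of 244 (19 and 22 lower without 1511 replicate 1 and 1601 replicate 1).

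Transcription factors were called, against 25.5% of all genes, in 15.3% (AP2/ERF, 137 tested), 13.7% (WRKY, 73), 21.5% (NAC, 93), 22.7% (MYB, 229) and 20.2% (GRAS, LOB and homeobox, 168) of their members. A newly assembled homeobox leucine zipper gene on scaffold 1851, which overlaps another gene, had 83.5, 107.5 and 90.6 CPM in “1511” and 22.9, 31.7 and 13.3 CPM in “1601” (log2 2.05 ± 0.26, adjusted p = 4.98e-06 by edgeR). The WRKY factor TEA010066 had 12.6, 23.1 and 17.3 CPM against 33.9, 44.5 and 42.0 (log2 -1.19 ± 0.23, adjusted p = 0.000571), and the MYB factor TEA002399 1.78, 1.61 and 2.34 CPM against 12.5, 12.6 and 9.90 (log2 -2.60 ± 0.42, adjusted p = 7.3e-05). In the hormone families the share was 19.3% for auxin families and 17.6% for cytokinin dehydrogenases and response regulators. A newly assembled cytokinin dehydrogenase on scaffold 2731, which breaks cytokinin down, had 19.6, 21.7 and 35.4 CPM against 9.10, 7.02 and 7.81 (log2 1.68 ± 0.36, adjusted p = 0.00136).

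Of 50 photosynthesis genes 11 were lower and 2 higher in “1511” (median log2 -0.52, 7 lower without 1511 replicate 2). The share called was 26%, near the 25.5% of all genes, with 22% lower against 13% of all genes. Chlorophyll a/b binding proteins gave 6 lower and no higher calls of 23, and RuBisCO small chains 3 and 0 of 4. TEA030366, a chlorophyll a/b binding protein, had 1.26, 0.731 and 0.905 CPM in “1511” and 12.2, 8.0 and 10.8 CPM in “1601” (log2 -3.40 ± 0.39, adjusted p = 1.25e-06 by edgeR). CP12, a small regulator of the Calvin cycle, ran the other way in TEA029638, at 215.0, 177.0 and 113.8 CPM against 40.0, 60.9 and 10.1 (log2 2.19 ± 0.57, adjusted p = 0.00704).

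**Figure D4:**
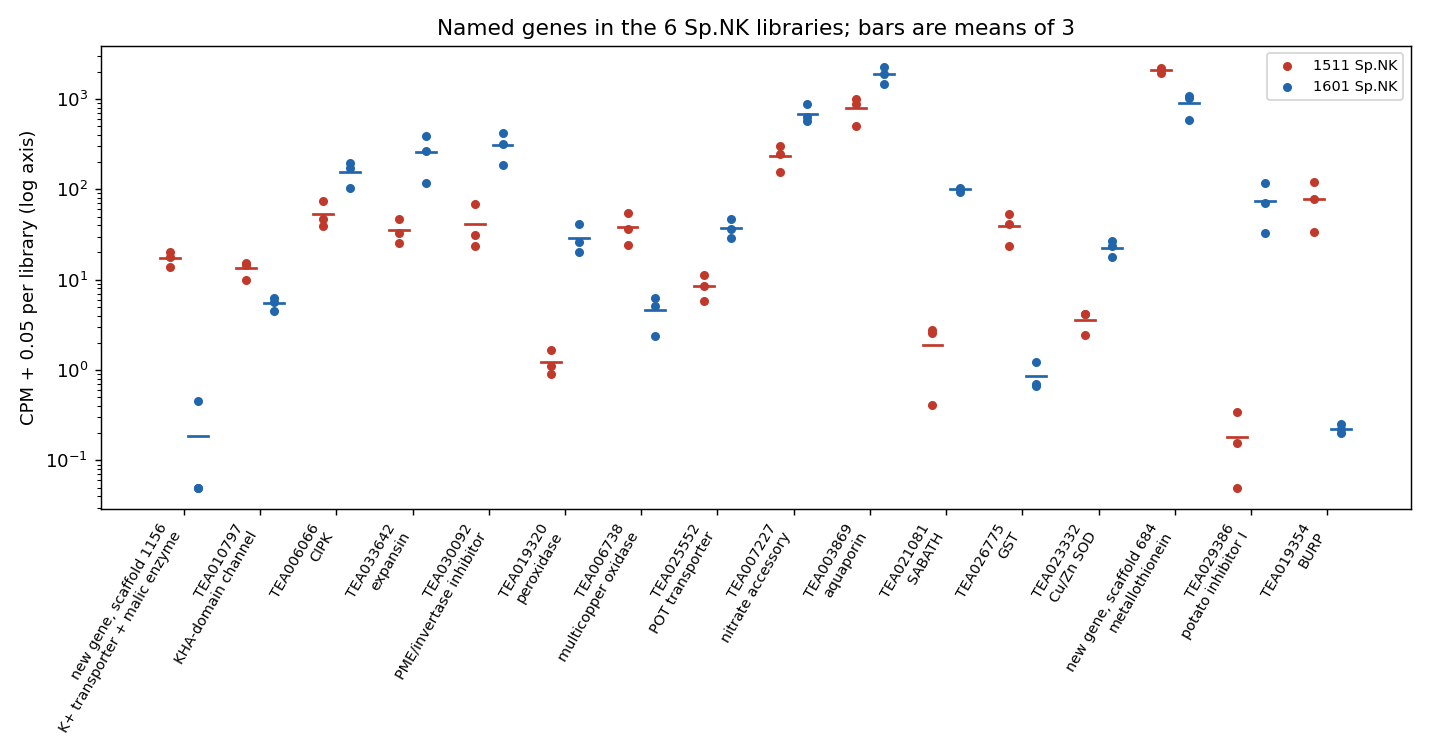
CPM + 0.05 (log axis) of 16 genes in each Sp.NK library, red for “1511” and blue for “1601”, with the mean of 3 libraries as a bar. In all 16 the groups do not overlap, and the log2 differences run from -9.21 in the potato inhibitor I gene to 8.73 in the BURP gene.

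The genes with the largest differences among those above the floor of 3 reads in at least 1 library of each genotype were of diverse function. In TEA019354, TEA006919 and TEA030666 the level in “1601” was near that floor (0.134 CPM), so their folds rest on few reads. TEA019354, a BURP domain protein of the cell wall, had 78.1, 34.0 and 121.1 CPM in “1511” and 0.153, 0.170 and 0.201 CPM in “1601” (log2 8.73 ± 0.98, adjusted p = 9.15e-07 by edgeR). TEA006919, of the LEM3/CDC50 family of subunits of lipid-moving pumps, had 97.2, 126.1 and 78.2 CPM against 0.153, 0.425 and 0.362 (log2 8.26 ± 0.42, adjusted p = 4.39e-11). The small GTPase TEA030666 of the ADP-ribosylation factor family, which acts in vesicle traffic, stood at 23.8, 23.4 and 24.4 CPM in “1511” and 0.205, 0.128 and 0.121 CPM in “1601” (log2 7.27 ± 0.38, adjusted p = 5.89e-11). Its replicates were almost identical. In the opposite direction, TEA031575, a thiolase of fatty acid metabolism, had 1.05, 1.90 and 0.692 CPM against 79.6, 70.8 and 63.7 (log2 -5.91 ± 0.32, adjusted p = 8.58e-11). The lipid transfer protein TEA018962 was among the most abundant lower genes, at 125.4, 135.5 and 198.8 CPM against 343.7, 490.9 and 540.5 (log2 -1.58 ± 0.42, adjusted p = 0.00831).

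A further 131 called genes were read in 1 genotype and not above the floor of 3 reads per library in the other, where the reading genotype had at least 10 CPM. Of these, 64 were at the floor in “1601” (0.18% of the genes tested) and 67 in “1511” (0.188%). They lay on 120 scaffolds, 81 were newly assembled and 85 carried a Pfam name. Most were silent in the same genotype under every K supply, since 56 of the 64 and 54 of the 67 were at the floor in all 12 libraries of that genotype, and 36 of each group had no read in any of them. Whether the gene is missing, differs in sequence from the reference or is not transcribed cannot be told apart from these counts.

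The gene of this kind with the most reads in “1601” was TEA015693, a receptor with NB-ARC and leucine-rich repeat domains on scaffold 5420 (60026 to 62845), with 2145, 2491 and 3980 reads in “1601” and none in “1511”, at least 701-fold lower in “1511”. TEA033161, with a leucine-zipper domain, had 1477, 976 and 1247 reads in “1511” and none in “1601”, at least 535-fold higher. Neither had a read in any of the 12 libraries of the genotype that lacked it. In 4 cases 2 such genes were neighbours on a scaffold, and in 3 of the 4 the same genotype lacked both. On scaffold 2966 the P450 gene models TEA011075 (275107 to 275637) and TEA011079 (288907 to 289854) lay 13270 bases apart, and had 697, 2156 and 265 and 1420, 3082 and 452 reads in “1511” but none in “1601”. Both peaked in 1511 replicate 2. On scaffold 5444 the lectins TEA005161 (191325 to 193037) and TEA005164 (313149 to 314861), which carry a ribosome-inactivating domain as in ricin, were confined to “1601”, the first with 1047, 2346 and 1239 reads there and 2, 1 and 2 in “1511”.

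To see how far the difference belongs to Sp.NK, the same comparison was made in the other conditions, whose libraries are all different ones. Roots of Sp.SK nevertheless come from the same plants as those of Sp.NK, and the fit took their libraries as independent. Calls shared with Sp.SK and departures from it therefore do not compare separate plants. “1511” and “1601” differed in 10603 genes on U.NK (29.8%, with 14.3% higher and 15.5% lower), 10477 on Sp.SK (29.5%, 14.6% and 14.8%) and 19292 on U.SK (54.3%, 24.8% and 29.4%). Of the 9055 genes called on Sp.NK, 6062 (66.9%) were called in the same direction on U.NK, 6786 (74.9%) on Sp.SK and 6426 (71%) on U.SK. All 3 other conditions shared the call and direction for 5003 genes (55.3%), and none did for 1210 (13.4%). Called in the opposite direction were 52, 12 and 363 genes. TEA030666 is an example of a constant difference, at 7.27, 7.04, 7.15 and 7.55 on the log2 scale on Sp.NK, U.NK, Sp.SK and U.SK, and TEA023332, the superoxide dismutase, another (-2.67, -2.21, -2.21 and -2.11). The size of the first on Sp.NK rests on few reads in “1601”.

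The genotype difference on Sp.NK departed from the mean of the other 3 conditions in 805 genes (2.26%, edgeR), 586 with a higher value on Sp.NK (1.65%) and 219 with a lower one (0.616%). From that on U.NK alone it departed in 82 genes (0.231%), 62 higher (0.174%) and 20 lower (0.0562%). From that on Sp.SK it departed in 0 genes, with 2290 at an unadjusted p under 0.05 (6.44%) and a smallest adjusted p of 0.0579, while limma voom with quality weights called 109. The same tool called 5575 genes against the mean of the other conditions and 4801 against U.NK. The counts thus depended on the tool, and they also moved widely with single libraries. Given first for the mean of the other conditions (805) and then for U.NK (82), omitting replicate 3 of 1511-Sp.NK gave 14 and 7. Omitting replicate 1 of 1601-Sp.NK gave 95 and 10, its replicate 2 gave 452 and 153, and its replicate 3 gave 116 and 15. For 1511-U.NK, replicate 1 gave 376 and 7 and replicate 3 gave 2599 and 917, and for 1601-U.NK the 3 replicates gave 423, 495 and 379 and 20, 13 and 11. The count against U.NK was 30 when replicate 2 of 1511-Sp.NK was omitted. That against the mean was 505 and 473 when replicate 2 of 1511-Sp.SK or of 1601-Sp.SK was omitted, 535, 517 and 1402 for the 3 replicates of 1511-U.SK, and 458 and 363 for replicates 2 and 3 of 1601-U.SK.

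The 586 genes had a median log2 difference of 0.68 on Sp.NK, -1.03 on U.NK, 0.06 on Sp.SK and -2.70 on U.SK, so that the widest gap was to the plants without K. They were chosen for a value on Sp.NK above the mean of the others, so the direction of these gaps, and of the family medians below, was fixed beforehand. The 1511-U.SK libraries had 2033 to 2172 tested genes without a read, those of 1601-U.SK 988 to 1246. Its part in the gap was not tested. On Sp.NK itself 187 of them were called higher and 25 lower in “1511”. Members of 4 families were counted against the 1.65% of all genes that belong to the 586, with no test between families. Other families had raised counts too, among them O-methyltransferases (4 of 27) and xyloglucan endotransglucosylases (4 of 35), while K+ transporters had 0 of 33. Of 35 expansins 8 belonged to the 586 (22.9%), with medians of 1.88, -1.98, 1.32 and -3.86 in the same order. Of 50 photosynthesis genes 12 did (24%, medians -0.69, -3.24, -2.27 and -3.11), and of the 19 chalcone synthases, isomerases and aromatic amino acid lyases 5 did (26.3%, medians 0.97, -2.14, 0.76 and -5.04). Of 97 sugar transporters 11 did (11.3%), 9 of which were called higher on Sp.NK. Without 1511-Sp.NK replicate 3 these counts fell to 1 expansin and to 0 in the other 3 families. Over all left-out fits they ranged from 1 to 15, 0 to 21, 0 to 8 and 0 to 16. The NB-ARC receptors had 2 of 406 members among the 586 (0.493%) and 7 among the 219 (1.72%, against 0.616% of all genes), with 0 to 6 and 0 to 15 in the left-out fits.

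Single genes, picked here because they passed this test, show the pattern. TEA003333, with an expansin-like domain, had 42.2, 28.9 and 46.4 CPM in “1511” on Sp.NK and 3.78, 7.40 and 10.7 CPM in “1601” (log2 2.42 ± 0.66, adjusted p = 0.0098 by edgeR, and 0.0541 without 1601 replicate 1). On U.NK the order was reversed, at 0.180 to 8.16 CPM in “1511” and 23.7 to 48.6 CPM in “1601”, and on U.SK “1511” had at most 0.389 CPM. The departure from the mean of the other conditions was 5.37 (adjusted p = 0.00757) and that from U.NK 5.28 (adjusted p = 0.0299). The first passed in all 24 fits with 1 library left out, the second in 5 of 12 (highest adjusted p 0.102). TEA002786, a dirigent-like protein, which guides the coupling of phenolics, had 61.1, 96.5 and 105.1 CPM against 37.9, 44.3 and 31.1 on Sp.NK (log2 1.21 ± 0.38, adjusted p = 0.0215). That call was lost without 1511 replicate 2 (adjusted p = 0.0517), 1511 replicate 3 (0.0761), 1601 replicate 1 (0.0596) or 1601 replicate 3 (0.0881). Its differences elsewhere were -1.03 on U.NK, 0.06 on Sp.SK and -3.07 on U.SK. A newly assembled lipoxygenase on scaffold 1939, which overlaps another gene and belongs to the enzymes that start jasmonate synthesis, had 13.8, 8.18 and 36.4 CPM against 1.13, 2.59 and 2.37 on Sp.NK (log2 3.25 ± 0.71, adjusted p = 0.00155), and -0.59, 2.35 and -2.61 elsewhere in the same order. The acyltransferase on scaffold 2379 departed in the other direction, and it was “1601” that stood apart on Sp.NK. It had 86.4 to 104.3 CPM in “1601” on Sp.NK, against 31.4 to 42.4 CPM on U.NK, 20.1 to 32.4 CPM on Sp.SK and 26.4 to 27.9 CPM on U.SK, while “1511” was between 4.82 and 44.6 CPM in all its libraries. The departure was -2.99 (adjusted p = 0.00658), and it passed the test in all 24 fits with 1 library left out.

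**Figure D5:**
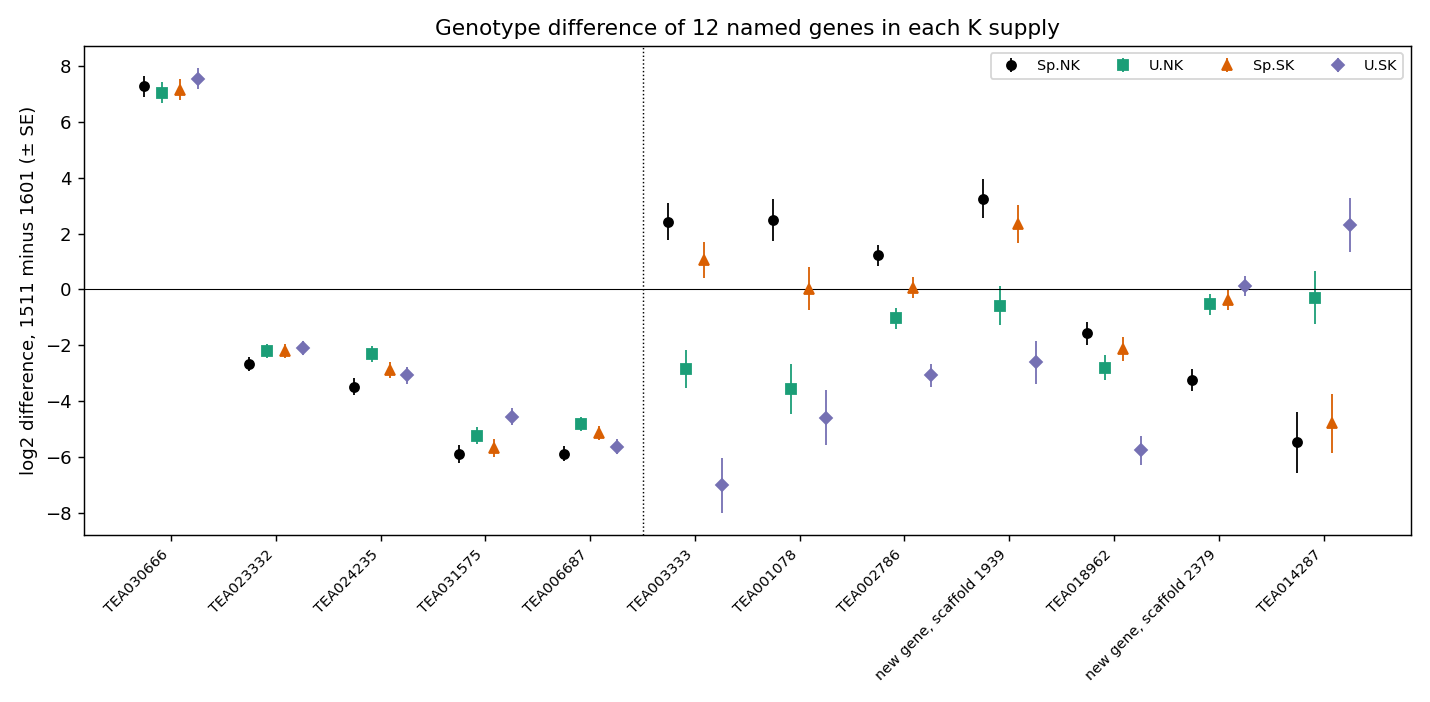
Log2 difference between “1511” and “1601” (± SE) of 12 genes on Sp.NK, U.NK, Sp.SK and U.SK. The 5 genes left of the dotted line keep nearly the same difference in every K supply, and the 7 on the right change size or sign, with Sp.SK in most of them the nearest to Sp.NK.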

How the data were processed

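Total RNA of roots was sequenced on an Illumina platform. The submitters' processing notes name CASAVA 1.7 and HISAT2 2.0.5, the aligner of the cleaned reads to a scaffold-level tea genome. The deposited counts are raw reads per gene. The authors also deposited FPKM, counts scaled by gene length and library size, which were used only to compare levels between genes. The counting program, its strand setting and its handling of reads that match several genes are not given in the sources used here, so closely related or overlapping genes may share reads.

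The counts of 24 libraries were fitted as 8 group means by the quasi-likelihood test of edgeR 4.0.16 in R 4.3.3 (TMM, filterByExpr, 16 residual degrees of freedom), which shares the spread over all groups, and called at a Benjamini-Hochberg adjusted p under 0.05. Of 48505 genes 35557 were tested, 9869 of them newly assembled. SE is that of the log2 difference. A genotype counted as at the floor with at most 3 counts in each library, 0.179 CPM (1511) or 0.134 CPM (1601), which covers counting error only. The methods of the study describe 3 replicates grown in separate root boxes but do not tie a library to a box, so p-values measure only the spread between these libraries, which may be technical.

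Families were grouped by the Pfam names in the table. Named genes are those without overlap and with the largest differences, overall (8 per direction) and in each family, the 5 per direction read in 1 genotype or highest in FPKM, the 3 per direction that departed most from the other conditions, and genes that the study discusses. Further family members were singled out after their values were seen. The members and lists were chosen with earlier results of these data known. On simulated counts (35557 genes, 200 changed) the test recovered 28% of 2-fold and 80% of 4-fold changes, with 8 of 116 calls false. Genes with very few reads were not changed there, and far fewer genes were changed than were called in the data. These rates therefore do not carry over to the calls on Sp.NK. Alternatives were DESeq2 1.42.0 size factors, other filters, limma 3.58.1 voom with quality weights, a replicate block, newly assembled genes left out, the 6 libraries alone (edgeR and DESeq2) and each library left out.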

Additional observations from a re-analysis of the deposited data

Results flagged for a closer look

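For 10 named genes the genotype difference on Sp.NK departed from the mean of the other 3 conditions, in a test of that difference itself (edgeR, Benjamini-Hochberg adjusted p). Values are log2 differences of differences. The expansin-like TEA003333 stood at 5.3654 (adjusted p = 0.00757) and the newly assembled acyltransferase on scaffold 2379 at -2.9897 (adjusted p = 0.00658), and both passed in all 24 fits with 1 library left out. TEA001078, a PAR1 protein, stood at 5.2094 (adjusted p = 0.0125), the dirigent-like TEA002786 at 2.5604 (adjusted p = 0.0109) and the newly assembled lipoxygenase on scaffold 1939 at 3.5325 (adjusted p = 0.0303). These 3 passed in 23, 23 and 20 of the 24 fits. For TEA001078 the high value on Sp.NK came from 1511 replicate 2, with 29.6 CPM against 2.15 and 4.95 CPM in the other 2 libraries of “1511”, and its call on Sp.NK was lost without that library (adjusted p = 0.45), without 1601 replicate 1 (0.0762) or without 1601 replicate 3 (0.0604).

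The lipid transfer protein TEA018962 stood at 1.9873 (adjusted p = 0.0393), the O-methyltransferase TEA012822 at 5.753 (adjusted p = 0.0472), the glycine-rich TEA014287 at -4.5495 (adjusted p = 0.0478), the newly assembled NB-ARC gene on scaffold 619 at -3.744 (adjusted p = 0.0453) and the family 1 hydrolase TEA008079 at 1.7932 (adjusted p = 0.0392). These 5 passed in 10, 7, 6, 6 and 9 of the 24 fits with 1 library left out, with highest adjusted p-values of 0.164, 0.213, 0.224, 0.328 and 0.172. With the replicate block TEA012822 (adjusted p = 0.0565), TEA014287 (0.0516) and the NB-ARC gene (0.0537) did not pass, and by limma voom TEA014287 (0.307) and the NB-ARC gene (0.287) did not. In TEA014287 the mean of “1601” rested on replicate 2, with 130.2 CPM against 12.2 and 7.81 CPM. TEA012822 and TEA008079 were not called on Sp.NK itself. Against U.NK alone, the departure was 5.275 in TEA003333 (adjusted p = 0.0299), 6.0601 in TEA001078 (adjusted p = 0.0356) and -2.7121 in the acyltransferase on scaffold 2379 (adjusted p = 0.0401). These passed in 5, 3 and 4 of 12 fits with 1 library left out, with highest adjusted p-values of 0.102, 0.133 and 0.146, and TEA001078 did not pass with the replicate block (0.0504).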

How the results depend on the processing

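Of 9055 calls on Sp.NK (4415 higher, 4640 lower, 6828 at least 2-fold), a minimum of 10 counts in every library gave 3840, 1901, 1939 and 1924 (of the 5225 calls lost, 4829 were not tested under it), and newly assembled genes left out gave 5048, 2436, 2612 and 3390. With each library left out the ranges were 7309 to 8341, 3568 to 4200, 3663 to 4212 and 6034 to 6658. DESeq2 size factors gave 9048, edgeR on the 6 libraries 6622 and DESeq2 on them 8749. Replicate numbers did not pair the genotypes (correlations of same-numbered deviations -0.03, 0.06 and 0.11). Between Sp.NK and U.NK the correlations were 0.07, 0.42 and 0.49 in “1511” and -0.05, 0.06 and -0.05 in “1601”. With the replicate block 8896 genes were called on Sp.NK, 780 departed from the other 3 conditions and 68 from U.NK, and 4 of 13 departures of named genes no longer passed. The departure from the other 3 conditions ranged from 14 to 2599 genes with 1 library left out and was 5575 by limma voom, that from U.NK ranged from 7 to 917 and was 4801 by voom, and that from Sp.SK ranged from 0 to 2, and was 109 by voom, 1 without a filter and 1 without newly assembled genes. The cause of these shifts was not tested. Reversed signs were confined to genes not called, among the named ones: TEA026325 (-0.032 to 0.94 with 1 library left out, below 0 without 1601-Sp.NK replicate 2), TEA023084 (-0.43 by voom, and -0.48 to 0.69, below 0 without 1511-Sp.NK or 1601-Sp.NK replicate 3) and TEA016242 (-0.054 to 0.36, below 0 without 1511-Sp.NK or 1601-Sp.NK replicate 2). Fewer reads in “1511” raise its floor, so low genes there are less certain.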
